A study of Mus musculus with 2 samples.

Results

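The genes described here are the parts of motile cilia whose mouse symbols begin with Dnah, Dnaaf, Cfap, Rsph, Tekt or Ift followed by a digit. Of 31053 genes listed, 74 met this rule: 16 Dnah, 4 Dnaaf, 26 Cfap, 8 Rsph, 5 Tekt and 15 Ift. All 74 had a position in the GENCODE annotation of the mm10 (GRCm38) assembly, on 18 chromosomes. The antisense RNAs Dnah2os and Ift88os also meet the rule, and Ift88os had 0 UMIs in every cell kept. Single-cell RNA sequencing of the dentate gyrus, the hippocampal region in which granule neurons are made, was done at postnatal day 2. Mice of the KO library were hGFAP-Cre;Kdm6bF/F, with a Cre, driven by a human GFAP promoter active in radial glia, that deletes Kdm6b, the gene for a histone H3 lysine demethylase. The control library came from littermate controls labelled WT, with no allele given, and each library pooled 2 animals. Because each genotype has 1 library, the genotypes cannot be tested against each other. Every difference below is therefore between these libraries, and every interval is a 95% interval for counting error alone. The libraries also differed in the share of cells counted as female from Xist and Y-linked UMIs, as given below.

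A motile cilium is a microtubule axoneme whose doublets are bent by dynein arms, controlled through radial spokes and a central pair, and built by intraflagellar transport from a basal body. In the brain, multiciliated ependymal cells line the ventricles and move cerebrospinal fluid. They descend from radial glia around birth, under the transcription factors Foxj1 and Rfx3 among others. Primary cilia, which radial glia, astrocytes and neurons carry, use intraflagellar transport but in general lack dynein arms, radial spokes and tektins. For this reason Ift genes are given apart from the 59 genes of the other 5 families, which are called the motile families.

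RFX factors bind X-box sequences in promoters of cilium genes, and Foxj1 acts at many of the same genes. RefSeq promoters (GRCm38.p6, 250 bases before to 50 bases after each start) were matched to 58 members, with 65 promoters between them. The strict X-box, written as GTTGCC, 2 free bases, GG, 1 free base and AAC, was in 0 of the 65 and in 0.298% of all 32851 promoters, counting both strands. Its core GTTGCCA was in 12 (18.5%), against 4.38% of all promoters, and the forkhead core GTAAACA was in 4 (6.15%), against 3.65%. Looser letters tried after these counts were seen (GT, 4 free bases, AT, 3 free bases and AAC) were in 12 of the 65 (18.5%), against 2.63% of all promoters, and the 12 belonged to motile families (12 of 54) and none to Ift (0 of 11). The core can lie inside a looser match, so these counts overlap. The looser letters fix AT where the strict X-box has its 2 free bases, so a strict match need not hold them. A match is a run of letters and not a binding site. Windows of 60 bases are shown for the 7 members described by name below that hold the looser letters, each read along the gene's own strand with the match in capitals. In Cfap44, Dnaaf2, Dnaaf3 and Dnah17 the capitals spell the letters as given, and in Cfap36, Cfap70 and Tekt1 the letters lie on the other strand, so that the capitals are their reverse complement.
Cfap36, chr11:29247261-29247320, minus strand: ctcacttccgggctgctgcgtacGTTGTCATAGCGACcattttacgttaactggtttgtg
Cfap44, chr16:44394749-44394808, plus strand: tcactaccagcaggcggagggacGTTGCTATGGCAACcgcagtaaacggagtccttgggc
Cfap70, chr14:20452201-20452260, minus strand: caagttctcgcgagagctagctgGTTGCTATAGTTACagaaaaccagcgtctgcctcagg
Dnaaf2, chr12:69198410-69198469, minus strand: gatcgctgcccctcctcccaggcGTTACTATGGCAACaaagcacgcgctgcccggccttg
Dnaaf3, chr7:4532592-4532651, minus strand: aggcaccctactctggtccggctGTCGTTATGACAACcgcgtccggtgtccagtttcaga
Dnah17, chr11:118129410-118129469, minus strand: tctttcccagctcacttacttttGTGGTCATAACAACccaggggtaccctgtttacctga
Tekt1, chr11:72361861-72361920, minus strand: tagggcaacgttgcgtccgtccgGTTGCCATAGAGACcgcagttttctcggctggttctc
The matches lie 25, 27, 12, 17, 163, 227 and 15 bases before the RefSeq start of Cfap36, Cfap44, Cfap70, Dnaaf2, Dnaaf3, Dnah17 and Tekt1. Those of Dnaaf3 and Dnah17 are the farther ones, and Dnah17 was nearly absent from ependymal-like cells.

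After filtering, 1933 cells remained in the KO library (25533397 UMIs in these cells, median 9318 UMIs per cell) and 2958 in the control library (31625208 UMIs in these cells, median 7347.5). A UMI stands for 1 captured RNA molecule, and levels are a gene's UMIs scaled to a common total of UMIs in each cell class (CPM). Counts come from the 3′ ends of transcripts, so they were not divided by gene length and are not compared between genes. The libraries shared 9 cell barcodes, 6 of them among the cells kept. Cells were grouped without the member genes, and 2 clusters met the marker rule for the ependymal-like class: cluster 8 (161 KO and 91 control cells) and cluster 16 (71 KO and 25 control cells). Together they were 12% of KO cells (232) and 3.92% of control cells (116), and without the filter on barcodes 11.6% and 7.21%. Foxj1 and Tmem212, ependymal markers, were among the 10 leading genes of cluster 8. Cluster 16 was led by 4933407L21Rik, Pcp4l1, Rspo3, Wnt8b, Agt, Krt15, Lmx1a, Cnmd, Rspo1 and Wls. Pcp4l1 and Krt15 are ependymal markers on the list used and Agt is an astrocyte marker, whereas Rspo3, Wnt8b, Lmx1a, Rspo1 and Wls are known from the cortical hem and roof plate. The name of cluster 16 therefore rests on the marker list and is less sure than that of cluster 8, and results are also given for each cluster. All 10 ependymal markers had UMIs in the class in both libraries, summing to 3758 CPM in KO and 4588 CPM in control cells. Of 10 markers of choroid plexus epithelium, another ciliated cell type of the ventricles, 8 had UMIs in KO and 7 in control ependymal-like cells, at a summed 127 and 157 CPM, and Kl and Kcne2 were at 0 in both. The class of radial glia and neural stem cells (RG/NSC-like) held cluster 5 (134 KO and 150 control cells, led by Entpd2 and Tfap2c) and the mitotic cluster 6 (72 KO and 210 control cells). Cluster 6 was led by cell-cycle genes with none of the class's markers among its first 10. Cluster 5 held most of the class in the KO library and cluster 6 in the control library, so these clusters are also given apart. Kdm6b itself had 153 UMIs in KO and 81 UMIs in control ependymal-like cells (59 and 54.5 CPM), a ratio of 1.08 (0.82 to 1.44). Counts from the 3′ end do not show whether the floxed part of the gene is gone, so this value does not check the genotype. Astrocyte-like cells numbered 69 and 253, and neuron-like cells 840 and 1144, in KO and control. The neuron-like class pooled clusters of pyramidal, granule, GABAergic, Cajal-Retzius and other neurons, in unlike mixtures. For example, pyramidal neuron-like cluster 0 held 346 KO and 269 control cells, and cluster 4 held 61 and 226. Cajal-Retzius cell-like cells numbered 32 and 129. The part of this mixture in KO to control values of neuron-like cells was not tested.

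Ependymal-like cells carried far more RNA of the 74 genes than RG/NSC-like, astrocyte-like or neuron-like cells, in both libraries. In the KO library the members summed to 10531 CPM in ependymal-like cells, against 1410 CPM in RG/NSC-like, 921 CPM in astrocyte-like and 772 CPM in neuron-like cells. In the control library the sums were 12317 CPM in ependymal-like cells, against 964, 822 and 756 CPM in the same 3 classes. Ependymal-like cells thus exceeded RG/NSC-like cells 7.47-fold in the KO library (7.15 to 7.80) and 12.8-fold in the control library (12.2 to 13.3). The excess over neuron-like cells was 13.6-fold (13.3 to 13.9) in the KO library and 16.3-fold (15.9 to 16.7) in the control library. In cluster 8 alone the excess was 8.29-fold (KO) and 13.8-fold (control) over RG/NSC-like cells and 15.1-fold and 17.6-fold over neuron-like cells. Since member genes stayed out of the clustering and naming, these sums did not choose the cells. Other genes of the same cells did choose them, and so the sums are given as descriptions.

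**Figure D1:**
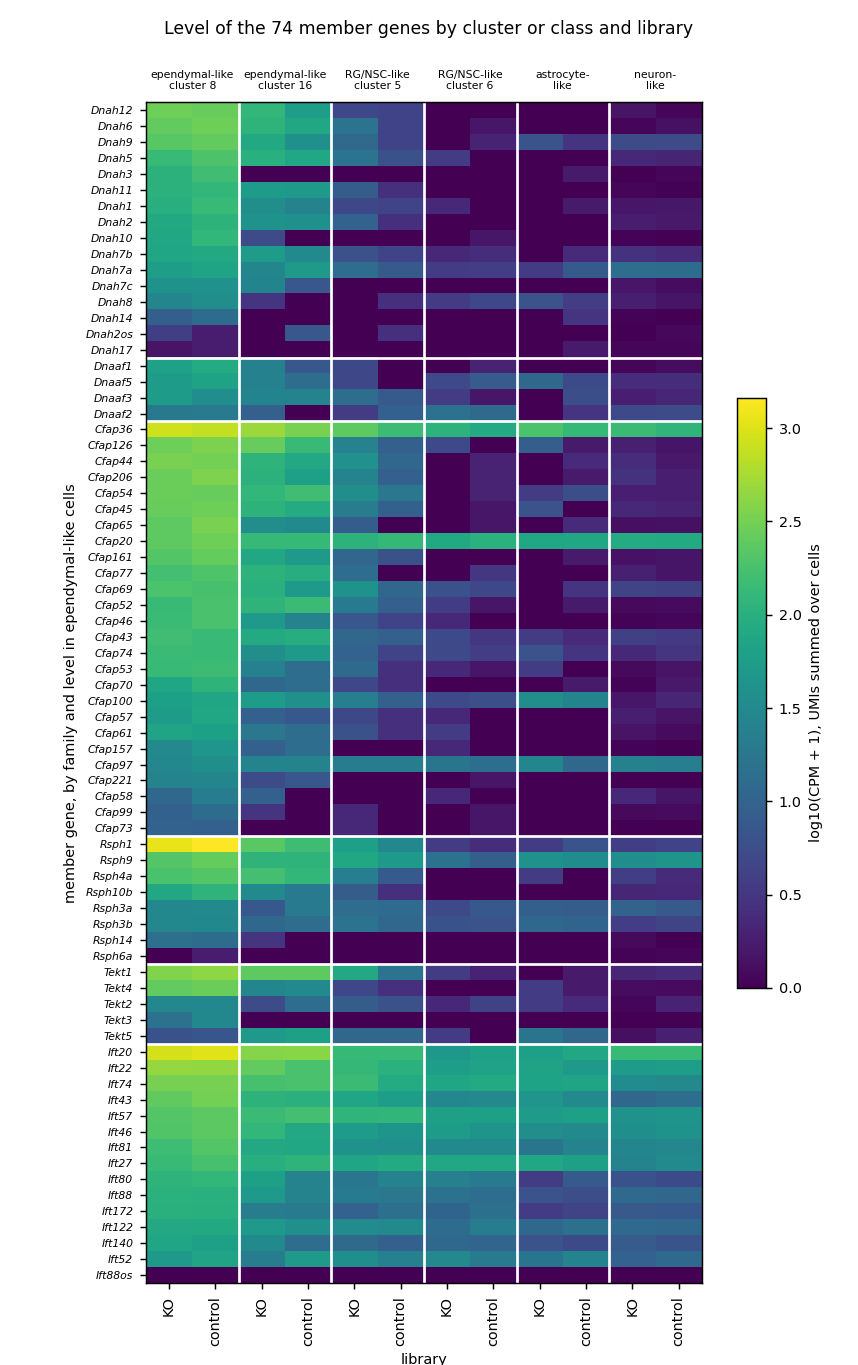
Level of each of the 74 members, as log10(CPM + 1) from UMIs summed over cells, by cluster or class (RG/NSC is radial glia and neural stem cells) and library, KO left of control. Rows are grouped by family, and most rows of the motile families are bright in the ependymal-like columns only, whereas Ift rows and those of Cfap36, Cfap20 and Rsph9 stay above the dark end in every class.

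Member by member the picture was the same. A member was counted as measured in a comparison if it had at least 20 UMIs over both sides together. Against RG/NSC-like cells, 64 of 69 measured members were at least 2-fold higher in ependymal-like cells of the KO library, where 24.1% of all measured genes were. In the control library 65 of 66 were, against a background of 26%. Against astrocyte-like cells the counts were 63 of 67 in KO cells (background 32.5%) and 65 of 66 in control cells (background 30.4%). Against neuron-like cells they were 67 of 68 (background 33.5%) and 66 of 67 (background 31.6%). Members could pass the 20-UMI limit through the ependymal-like cells alone, so the summed levels, which hold every member, carry the comparison. No member was at least 2-fold lower in these 6 comparisons, where 13.7%, 12.6% and 22.9% of all genes were lower than in RG/NSC-like, astrocyte-like and neuron-like cells of the KO library, and 21.1%, 16.4% and 24.7% in the control library. The exceptions in at least 1 comparison were Ift52, Ift27, Dnaaf2, Tekt5, Cfap97 and Cfap100.

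The Dnah genes encode the heavy chains of axonemal dynein, the motors that bend the cilium. In ependymal-like cells the 16 summed to 1408 CPM (KO) and 1728 CPM (control), against 48.1 and 16.4 CPM in RG/NSC-like cells and 23.9 and 22.2 CPM in neuron-like cells. Ependymal-like cells were 29.2-fold (23.2 to 37.3) above RG/NSC-like cells in the KO library and 105-fold (77.2 to 148) in the control library. Dnah12 (chr14:26693274-26891703), an inner-arm heavy chain, had 257 CPM in KO and 241 CPM in control ependymal-like cells, and 0 UMIs in astrocyte-like cells of both, which allows up to 8.10 CPM in the 69 KO cells and 2.04 CPM in the 253 control cells if 3 counts are taken as the limit. Dnah5 (chr15:28203752-28472052), an outer-arm heavy chain mutated in human primary ciliary dyskinesia, had 131 and 178 CPM in KO and control ependymal-like cells and 0 in astrocyte-like cells. Dnah6 had 228 and 264 CPM, and Dnah9, another outer-arm chain, 194 and 227 CPM, in KO and control ependymal-like cells. At the other end, Dnah17 had 1 UMI in ependymal-like cells of each library, and Dnah14 was found in 6.90% of KO and 11.2% of control ependymal-like cells. Dnah8 had 58 and 47 UMIs and was found in more of these cells, 18.1% and 23.3%, against 1.43% and 0.79% of neuron-like cells. Dnah17 and Dnah8 are chiefly known from sperm flagella. Dnah7a, Dnah7b and Dnah7c are near-identical copies between which reads may be split, so their single values are uncertain.

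The Dnaaf proteins assemble dynein arms in the cytoplasm before they enter the cilium. The 4 genes summed to 170 CPM (KO) and 189 CPM (control) in ependymal-like cells, against 22.1 and 18.9 CPM in RG/NSC-like and 6.53 and 7.62 CPM in neuron-like cells. Dnaaf1 had 55.9 and 78.0 CPM in KO and control ependymal-like cells, and Dnaaf5 49.0 and 60.5 CPM. Dnaaf2 was the exception, at 16.2 and 16.8 CPM in KO and control ependymal-like cells against 8.45 and 10.7 CPM in RG/NSC-like cells, ratios of 1.92 (1.01 to 3.89) and 1.58 (0.87 to 2.84).

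Cfap genes encode cilia and flagella associated proteins of many kinds, from doublet microtubules to the central pair. The 26 summed to 4007 CPM in KO and 4498 CPM in control ependymal-like cells, against 464 and 267 CPM in RG/NSC-like cells and 272 and 238 CPM in neuron-like cells. Cfap126, which helps position basal bodies, had 288 and 327 CPM in KO and control ependymal-like cells and under 1 CPM in neuron-like cells of both libraries. Cfap44, an axonemal protein, had 296 and 294 CPM, and Cfap206, of the radial spoke base, 244 and 327 CPM. Cfap36 (chr11:29221532-29247409) was spread widely, with 791 and 710 CPM in KO and control ependymal-like cells, 184 and 133 CPM in astrocyte-like cells and 143 and 116 CPM in neuron-like cells. Picked out after their values were seen, Cfap20, a protein of the doublet microtubules, had 86.4 and 84.0 CPM in KO and control neuron-like cells, and Cfap97 23.3 and 21.6 CPM there, against 27.8 and 35.0 CPM in ependymal-like cells. Cfap36 and Cfap20 account for most of the Cfap sum in neuron-like cells.

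Radial spokes pass signals from the central pair to the dynein arms, and Rsph1, Rsph9 and Rsph4a form their heads. The 8 Rsph genes summed to 1476 CPM in KO and 1928 CPM in control ependymal-like cells, against 113 and 43.0 CPM in RG/NSC-like cells and 53.5 and 58.3 CPM in neuron-like cells. Rsph1 (chr17:31255019-31277383) had 983 and 1316 CPM in KO and control ependymal-like cells, and between 2.70 and 5.44 CPM in astrocyte-like and neuron-like cells of either library. Rsph9 had 188 and 243 CPM in KO and control ependymal-like cells and 34.3 and 41.9 CPM in neuron-like cells, so it was not confined to the ependymal-like class. Rsph4a had 177 and 196 CPM in ependymal-like cells, and Rsph10b, whose locus overlaps Pms2 on the same strand, 67.5 and 104 CPM. Rsph6a had 0 and 1 UMI in KO and control ependymal-like cells. Rsph3a and Rsph3b are near-identical copies and are uncertain singly.

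Tektins form filaments inside the doublet microtubules. The 5 Tekt genes summed to 605 CPM in KO and 725 CPM in control ependymal-like cells, against 1.95 and 3.70 CPM in neuron-like cells, ratios of 311 (214 to 469) and 196 (152 to 256). These ratios hold against neuron-like cells only. Tekt1 was also found in non-mitotic RG/NSC-like cells, more so in the KO library, with values given below. Tekt1 (chr11:72344722-72362442) had 347 and 404 CPM in KO and control ependymal-like cells, Tekt4 209 and 255 CPM, Tekt2 24.3 and 27.6 CPM, and Tekt3 12 and 25.5 CPM. In cells drawn to a common 2000 UMIs, a Tekt1 UMI was found in 44.0% of KO and 55.3% of control cluster 8 cells (90.1% and 92.3% before drawing) and in 0% and 0.546% of endothelial-like cells, which lack motile cilia (4.04% and 3.54% before drawing).

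Ift genes are needed for motile and primary cilia alike, and they were present in every class. The 15 summed to 2865 CPM in KO and 3250 CPM in control ependymal-like cells, against 708 and 607 CPM in RG/NSC-like cells, 462 and 463 CPM in astrocyte-like cells and 414 and 426 CPM in neuron-like cells. Ependymal-like cells were 4.05-fold (3.80 to 4.32) above RG/NSC-like cells in the KO library and 5.35-fold (5.05 to 5.67) in the control library. For the motile families together the same ratios were 10.9 (10.3 to 11.6) and 25.5 (23.8 to 27.3). Ift20 (chr11:78536361-78541737), of the IFT-B complex, had 815 and 942 CPM in KO and control ependymal-like cells and 136 CPM in neuron-like cells of both. Ift22 and Ift74, of the same complex, had 417 and 298 CPM in KO and 415 and 310 CPM in control ependymal-like cells. Ift43, of the IFT-A complex, had 220 and 290 CPM in KO and control.

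**Figure D2:**
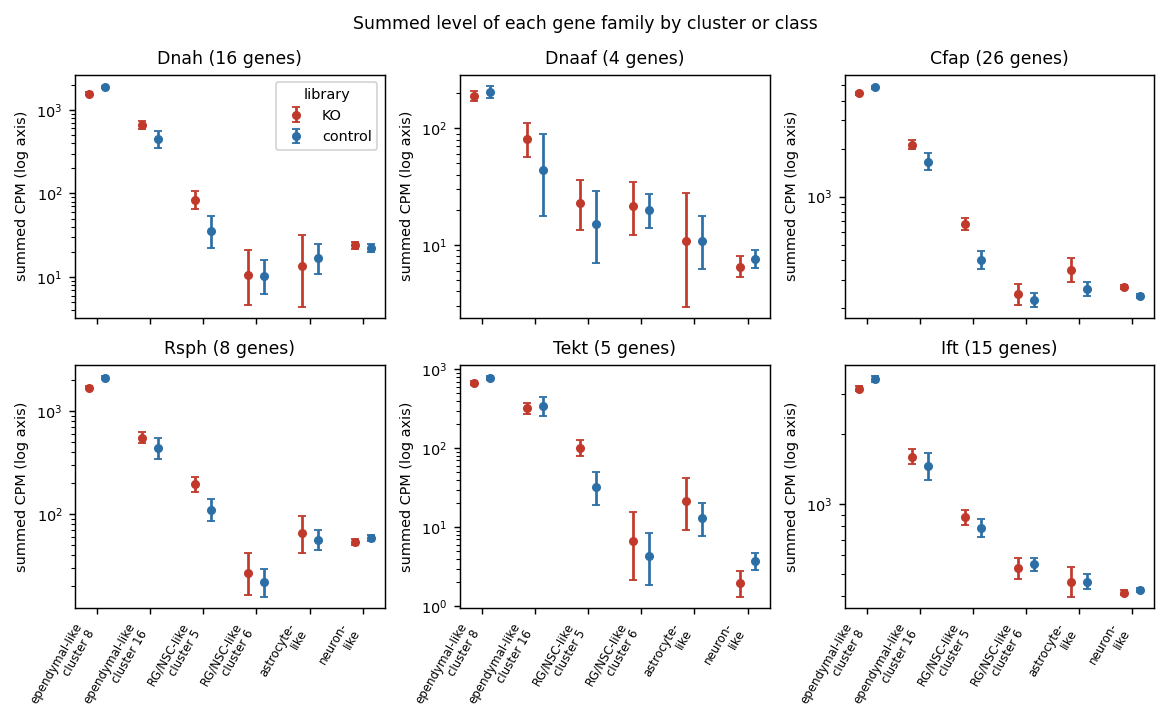
Summed CPM of each family on a log axis, by cluster or class, for the KO library (red, left of each pair) and the control library (blue), with exact Poisson 95% intervals for counting error. All 6 families are highest in cluster 8 and next in cluster 16 in both libraries, and Tekt is at 1.95 (KO) and 3.70 CPM (control) in neuron-like cells while Ift stays at 414 and 426 CPM.

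The ependymal-like clusters differed in level. Motile families summed to 8543 CPM in KO and 9808 CPM in control cells of cluster 8, and to 3729 and 2929 CPM in cluster 16, ratios of 2.29 (2.18 to 2.41) and 3.35 (3.05 to 3.68). Of measured members, 39 of 67 were at least 2-fold higher in cluster 8 than in cluster 16 of the KO library (background 16.8%) and 1 of 67 lower (background 9.91%). In the control library 49 of 65 were higher (background 21.4%) and 0 lower (background 15%). Rsph1 had 1152 CPM in cluster 8 and 226 CPM in cluster 16 of the KO library, and 1457 and 150 CPM in the control library. Tekt4 showed 249 and 27.5 CPM in the KO library and 283 and 31.2 CPM in the control library. Dnah3, an inner-arm chain, had 226 KO and 205 control UMIs in cluster 8 and 0 in cluster 16, at least 16.8-fold and 8.24-fold higher if a count of 3 is taken as the limit for cluster 16. Rsph4a differed less, with 180 CPM in cluster 8 and 163 CPM in cluster 16 of the KO library, a ratio of 1.10 (0.86 to 1.43), and 205 and 125 CPM in the control library, a ratio of 1.64 (1.04 to 2.73). Tekt5, picked out after its values were seen, ran the other way, with 5.19 CPM in cluster 8 and 48.7 CPM in cluster 16 of the KO library and 6.03 and 62.4 CPM in the control library, from 8 to 23 UMIs in each. Radial glia markers summed higher in cluster 16 (10044 CPM in KO and 13425 CPM in control, from 13 and 14 of 14 markers) than in cluster 8 (5070 and 3231 CPM, from 14 and 13 markers), and so did astrocyte markers (6410 and 9323 CPM against 1416 and 1074 CPM). Fabp7 made up much of the radial glia sum, with 4886 CPM in KO and 7468 CPM in control cells of cluster 16, against 1464 and 395 CPM in cluster 8. Nes and Gli3 were lower in cluster 16 in both libraries (Gli3 at 80.4 and 56.2 CPM, against 110 and 85.1 CPM in cluster 8).

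Single cells showed the same order. In cluster 8 a cell gave 31.0 to 200.4 motile-family UMIs per 10000 in the KO library (median 87.2) and 20.6 to 179 in the control library (median 99.9). In cluster 16 the values ran from 0 to 85.5 in the KO library (median 34.9) and from 4.05 to 95 in the control library (median 31.3), overlapping cluster 8. After each cell was drawn once to 2000 UMIs, leaving out 11, 6, 7 and 3 shallower cells, cluster 8 cells held a median of 12 (KO) and 13 (control) different motile-family genes and cluster 16 cells 6 and 4.5. Before drawing, these medians were 35 and 38, and 10 and 8. At least 5 such genes were found in 98.0% of KO and 98.8% of control cluster 8 cells, and in 60.9% and 50% of cluster 16 cells, with wide intervals for the 22 control cells of cluster 16 (28.2% to 71.8%). None of 171 KO and 183 control endothelial-like cells reached 5 genes, which allows shares of up to 1.75% and 1.64% by the same limit of 3 counts. At least 1 motile-family UMI was nonetheless found in 35.1% of KO and 39.9% of control endothelial-like cells at that depth (median UMIs 18287 and 21594.5 before drawing), so shares with a single UMI are not read as expression in the other classes.

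**Figure D3:**
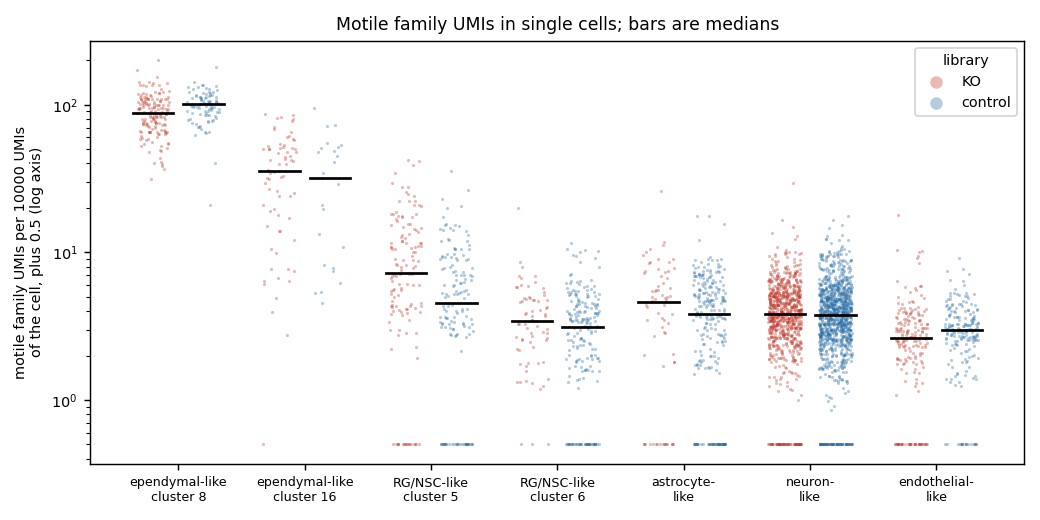
Motile-family UMIs per 10000 UMIs of each cell, plus 0.5, on a log axis, by cluster or class, KO (red) left of control (blue); each point is 1 cell and black bars are medians. Cluster 8 medians are 87.2 (KO) and 99.9 (control), cluster 16 medians 34.9 and 31.3, and endothelial-like medians 2.13 and 2.46.

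Cluster 5, the non-mitotic part of the RG/NSC-like class, stood between ependymal-like and neuron-like cells and differed between the libraries. Its motile families summed to 1074 CPM (1003 to 1148) in KO and 592 CPM (531 to 657) in control cells, a ratio of 1.81 (1.60 to 2.06), while its Ift genes summed to 879 and 788 CPM, a ratio of 1.12 (0.99 to 1.26). Tekt1 had 63 UMIs (79.7 CPM) in KO and 9 UMIs (15.2 CPM) in control cells of cluster 5. Rsph1 had 47 UMIs (59.4 CPM) and 17 UMIs (28.7 CPM), Cfap44 31 and 6 UMIs, Cfap36 186 and 86 UMIs, and Ift20 102 and 81 UMIs (129 and 137 CPM), in KO and control. Of 27 measured members 15 were at least 1.5-fold higher in KO cluster 5 (background 12.5%) and 1 at least 1.5-fold lower (background 13.8%), and 13 of the 15 belonged to motile families. Members could pass the 20-UMI limit through the KO cells alone, as Cfap44 did, so this count describes the measured members only. Cluster 16 in turn exceeded cluster 5 in motile families by 3.47-fold (3.20 to 3.77) in the KO library and 4.95-fold (4.30 to 5.70) in the control library. There 35 of 47 measured members were at least 2-fold higher in KO (background 13.1%) and 0 lower (background 8.25%), and in control 13 of 20 were higher (background 11.3%) and 0 lower (background 13.1%). Cluster 5 exceeded neuron-like cells in motile families by 3-fold (2.78 to 3.22) in the KO library and 1.79-fold (1.60 to 2.00) in the control library. Of measured members, 29 of 41 in KO (background 24.2%) and 25 of 40 in control (background 25%) were at least 2-fold higher in cluster 5, and 0 lower in either (backgrounds 23.9% and 22.8%). In the mitotic cluster 6 the motile families had 309 CPM in KO and 281 CPM in control cells, a ratio of 1.10 (0.94 to 1.29), with 2 of 19 measured members at least 1.5-fold higher (background 8.1%) and 1 lower (background 10.7%). Over the whole RG/NSC-like class, 17 of 34 measured members were at least 1.5-fold higher in KO (background 12.6%) and 0 lower (background 11%). In all these counts members could pass the 20-UMI limit through the side where they are high, so each describes the measured members only.

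Ependymal markers in cluster 5 summed to 329 CPM in KO (9 of 10 present), against 145 CPM in control cells (8 of 10), with Tmem212 at 0 in both. Foxj1 (109 and 45.6 CPM in KO and control) and Mia (94.9 and 28.7 CPM) made up most of the KO sum, while Hdc, Calml4 and Pcp4l1 were lower in KO, each at under 10 CPM. Foxj1, the transcription factor that switches on motile cilium genes, gave at least 1 UMI in 35 of 134 KO and 8 of 150 control cells of cluster 5, at median depths of 5570 and 3840 UMIs. After drawing to 2000 UMIs the shares were 12.6% and 3.55%, against 0.585% and 1.09% in endothelial-like cells. Motile families summed to 1763 CPM (1613 to 1923) in the KO cells with a Foxj1 UMI and 1324 CPM (1041 to 1659) in the control cells with one. In cells without one they summed to 677 CPM (607 to 753) in KO and 514 CPM (455 to 579) in control. In other classes this order was not always seen. In KO cluster 8 the 158 cells with a Foxj1 UMI had 8539 CPM (8414.5 to 8664). The 3 cells without one had 11140 CPM (7921 to 15228). In control neuron-like cells the values were 307 CPM (269 to 349) and 331 CPM (322 to 340). The intervals overlapped in both cases, so neither is read as a reversal. Control cluster 8 kept the order, with 9834 CPM against 7242 CPM (5852 to 8862) in the 5 cells without one. Cluster 5 cells with a Foxj1 UMI were also deeper, at a median of 7133 UMIs against 4917 without one in KO, and 5232.5 against 3775.5 in control. Cluster 5 did not hold the same mixture in both libraries: with finer clustering (resolution 2), 114 of its 134 KO cells and 62 of its 150 control cells were astrocyte-like. There the members' ratio of KO to control became 1.82 in the astrocyte-like class and 0.98 in the RG/NSC-like class. Leaving out RG/NSC-like cells with a Foxj1 UMI brought the class's ratio to 1.18, against 1.46 with them. In cluster 5 such cells were more frequent in KO and had higher sums, so a fall follows from the choice of cells. Finding a Foxj1 UMI also depends on depth, and no conclusion is drawn from this fall. The part of the mixture of cells, of doublets and of ependymal RNA in the KO to control difference was not tested.

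**Figure D4:**
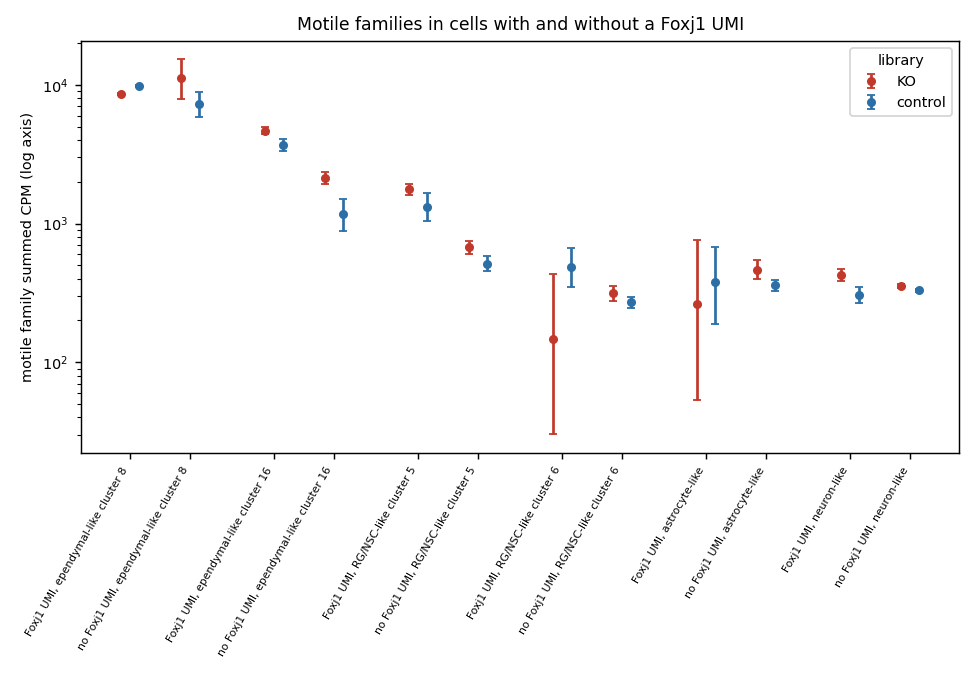
Summed CPM of motile families on a log axis in cells with and without a Foxj1 UMI, by cluster or class, for the KO (red) and control library (blue), with exact Poisson 95% intervals. In cluster 16 and cluster 5 the cells with a Foxj1 UMI lie above those without one in both libraries, for example at 1763 against 677 CPM in KO cluster 5.

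Within ependymal-like cells most members were lower in the KO library. Motile families summed to 7666 CPM in KO and 9068 CPM in control ependymal-like cells, a ratio of 0.85 (0.83 to 0.86), and Ift genes to 2865 and 3250 CPM, a ratio of 0.88 (0.85 to 0.91). The Rsph genes had the lowest ratio of a family, 0.77 (0.73 to 0.80), and Dnaaf genes the highest, 0.90 (0.77 to 1.05). Of 70 measured members 0 were at least 1.5-fold higher (background 8.79%) and 9 at least 1.5-fold lower (background 7.44%), and these counts were not tested. The median log2 ratio was -0.23 over these members and 0.01 over all 11445 measured genes. Scaling by TMM or by the median of ratios shifted the KO to control values of ependymal-like cells by -0.01 each on the log2 scale.

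The members lowest in KO relative to control, which were chosen by that ratio and are given as a description, were Tekt3, Dnah10, Cfap70, Dnah3 and Cfap65. Tekt3 had 31 UMIs (12 CPM) in KO and 38 UMIs (25.5 CPM) in control ependymal-like cells, a ratio of 0.47 (0.28 to 0.77). Dnah10, an inner-arm chain, had 166 UMIs (64.0 CPM) and 165 UMIs (111 CPM), a ratio of 0.58 (0.46 to 0.72). For Dnah3 the ratio was 0.63 (0.52 to 0.77), for Cfap70, a protein of the outer dynein arm region, 0.61 (0.49 to 0.77), and for Cfap65 0.67 (0.59 to 0.76). The highest were Dnaaf3, with 49.0 CPM in KO and 33.6 CPM in control cells, a ratio of 1.46 (1.04 to 2.06), whose locus overlaps Tnni3 on the same strand, and Cfap36, at 1.11 (1.03 to 1.20). Dnah12, Ift22 and Ift140, also taken by the same ranking, had ratios of 1.07 (0.94 to 1.21), 1 (0.91 to 1.11) and 1.17 (0.90 to 1.55), whose intervals include 1.

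**Figure D5:**
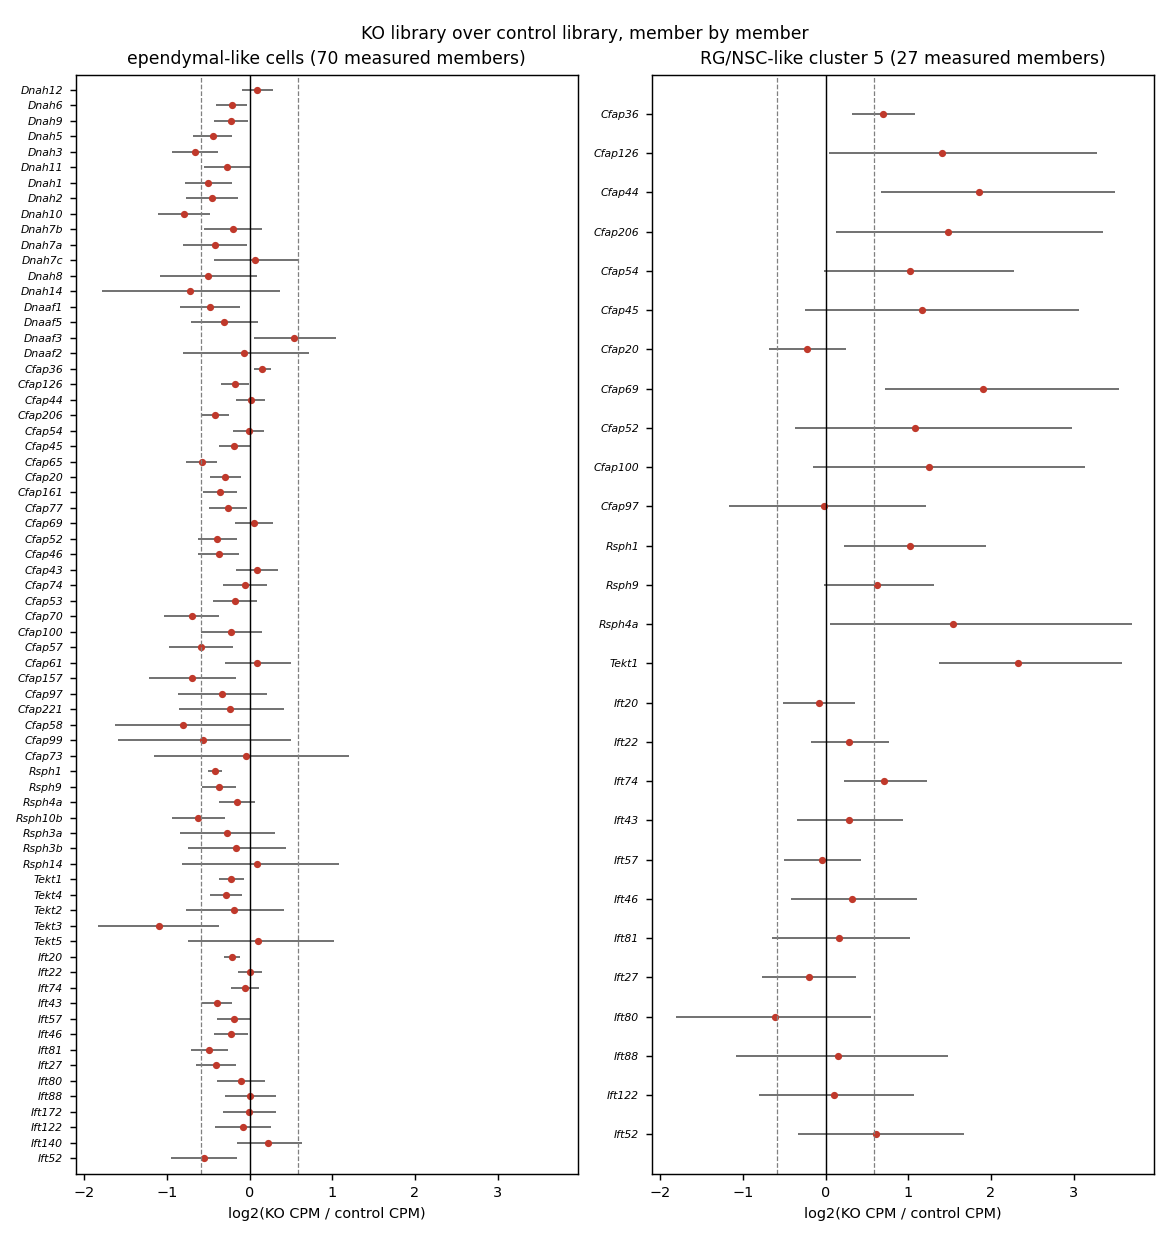
Ratio of KO to control CPM on the log2 scale, with 0.5 UMI added, for each measured member in ependymal-like cells (left) and in cluster 5 (right), with lines for exact 95% counting intervals and dashed lines at 1.5-fold. Most of the 70 points at left lie below 0 and within 1.5-fold, and the motile-family points at right lie mostly above 0 with wider intervals.

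The ependymal-like clusters did not move alike. In cluster 8 the motile families were at 0.87 (0.85 to 0.89) of the control level, with 1 of 69 measured members at least 1.5-fold higher (background 9.48%) and 7 lower (background 6.96%). In cluster 16, with 71 KO and 25 control cells, they were at 1.27 (1.15 to 1.41), with 9 of 41 members higher (background 14.8%) and 1 lower (background 14.8%). Cells of cluster 8 had a median of 11919 UMIs in KO and 15357 in control. Radial glia markers, all or all but 1 of 14 present, summed to 5070 CPM in KO and 3231 CPM in control cells of cluster 8. Fabp7 (1464 and 395 CPM) made up much of this difference. Most other markers were also higher in KO, but Nes (154 and 151 CPM) and Hopx (41.5 and 42.2 CPM) were nearly alike and Id4 was lower (213 and 230 CPM). The part of these markers in the motile-family difference was not tested. Mitochondrial UMIs were 4.70% in KO and 4.26% in control ependymal-like cells. Cells with an Xist UMI and no Y-linked UMI, counted as female, made up 211 of 232 KO and 60 of 116 control ependymal-like cells. Such cells were 199 of 206 KO and 186 of 360 control RG/NSC-like cells, and 51 of 69 and 93 of 253 astrocyte-like cells. Among neuron-like cells they were 821 of 840 and 452 of 1144. The libraries thus differed in this share as well as in genotype. In the ependymal-like cells counted as female alone, the motile families were at 0.82 (0.80 to 0.84), with 14 of 70 measured members at least 1.5-fold lower, where 9.26% of all measured genes were.

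Astrocyte-like cells had 459 CPM of motile families in KO and 359 CPM in control, a ratio of 1.28 (1.07 to 1.52), with 2 of 16 measured members at least 1.5-fold higher (background 11.1%) and 0 lower (background 11.4%). Neuron-like cells had 358 CPM in KO and 330 CPM in control, a ratio of 1.09 (1.05 to 1.13), with 8 of 47 members higher (background 5.38%) and 4 lower (background 7.11%). The widely spread Cfap36 was higher in KO in astrocyte-like and neuron-like cells, as given above, and made up much of both differences. These ratios are therefore not read as a change of the motile families as a whole. Endothelial-like cells had 230 and 260 CPM, a ratio of 0.89 (0.81 to 0.97), with 1 of 25 members higher (background 4.7%) and 2 lower (background 6.14%). Over all cells, without regard to class, motile families summed to 1095 CPM in KO and 729 CPM in control, a ratio of 1.5 (1.48 to 1.53), with 33 of 71 members at least 1.5-fold higher (background 8.4%) and 0 lower (background 5.35%). This all-cell difference is opposite in direction to that within ependymal-like cells, and the ependymal-like share of the KO library was the larger one.

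Genes of the cilium outside the naming rule gave a similar picture. Of 59 axoneme genes outside the rule, 58 were measured, and all 58 were at least 2-fold higher in ependymal-like than in RG/NSC-like cells in both libraries, where 24.1% (KO) and 26% (control) of all measured genes were. These genes too could pass the 20-UMI limit through ependymal-like cells alone. Their sum was at 0.79 (0.77 to 0.80) of the control level in KO ependymal-like cells. Tubb4b, a tubulin of ciliary microtubules, had 1342 CPM in KO and 1998 CPM in control cells, and Meig1, Tppp3 and Riiad1 had ratios of 0.73, 0.78 and 0.78. The 20 multiciliation regulators as a sum were close to 1, at 0.98 (0.93 to 1.02). Foxj1, which served as a marker and is not on that list, had 1386 CPM in KO and 1336 CPM in control cells, a ratio of 1.04 (0.98 to 1.10). On the list, Deup1, needed for the deuterosomes that make extra centrioles, had 339 CPM in KO and 299 CPM in control, 1.13 (1.01 to 1.27). Myb and Rfx3 had ratios of 1.06 (0.93 to 1.23) and 1.24 (1.04 to 1.48), whereas Cdkn1a, a cell-cycle inhibitor, had 227 CPM in KO and 391 CPM in control, 0.58 (0.52 to 0.65). The 22 genes of intraflagellar transport and its motors outside the rule were at 0.85 (0.81 to 0.88) and the 31 of the primary cilium and BBSome at 0.87 (0.83 to 0.90). Kif3a, a subunit of the kinesin that drives transport outward, was at 0.76 (0.66 to 0.88), and Tctex1d2, Wdr60 and Dynlrb1, of the dynein that drives it back, at 0.82, 0.94 and 0.89. B9d1, of the transition zone, was at 0.74, Cep164, of the basal body's distal appendages, at 0.84, and the ciliary GTPase gene Arl3 at 1.14 (1.01 to 1.29).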

How the data were processed

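The deposited values were whole-number UMI counts per gene and cell barcode, not normalized, from a 10x Genomics 3′ assay per the labels' protocols. The submitters' processing notes list Cell Ranger 3.0.2, Seurat 3 and mm10 without saying what each did. Barcodes with at least 500 genes, 1000 UMIs and at most 10% mitochondrial UMIs were kept: 1967 of 2292 in the KO library and 3029 of 3555 in the control library. Scrublet called 10 and 12 doublets, too few to have worked, so the top-scoring 0.8% per 1000 barcodes were removed, 34 and 71. Clustering (scanpy 1.11.5, leidenalg 0.10.2; 2000 variable genes, 30 components, 15 neighbours, resolution 1) left out the members and the cilium lists. It gave 26 clusters, of which 24 were named by markers. Names ending in -like rest on rebuilt clusters.

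UMIs were summed per class and library. Intervals are exact Poisson (sums), conditional binomial (ratios) and Clopper-Pearson (shares), at 95%. Log2 ratios had 0.5 UMI added. Steps were tested on simulated counts. TMM came from edgeR 4.0.16. The members and gene lists were chosen with earlier results of these data known. Members named were the 4 with most UMIs in ependymal-like cells per family, the 5 highest and 5 lowest in KO over control by the interval bound nearest 1, and 4 per list, of which 1 is not reported here. The rule also asked for members under 1.5-fold above radial glia in both libraries, of which there were 0. Unassigned columns numbered 0. No p-value is given, and differences have no replicate check. Alternatives covered the filters, doublets, clustering, class definition, depth, scaling, the UMI minimum, cells counted as female, and single clusters; their effect is given at the end.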

Additional observations from a re-analysis of the deposited data

Results flagged for a closer look

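The motile families differed between KO and control in opposite directions in different cell classes. Their summed CPM in the KO library was 0.845 times that of the control library in ependymal-like cells and 1.97 times in RG/NSC-like cells. Both directions depend on which cells are taken: the RG/NSC-like ratio was 1.81 in cluster 5 and 1.10 in cluster 6, and the ependymal-like ratio 0.871 in cluster 8 and 1.27 in cluster 16. For all members together, the RG/NSC-like ratio was 1.46, and 0.975 and 0.986 at resolution 2 and with more variable genes. The class also held 134 and 72 KO cells, against 150 and 210 control cells, of clusters 5 and 6. The difference between these classes was not tested, since each genotype has 1 library.

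Motile-family RNA was also present in barcodes that were left out of the comparisons. The 359 KO barcodes left out had 609 CPM (568 to 654) of motile families, and 24 of them had a Foxj1 UMI. The 597 control barcodes left out had 954 CPM (910 to 999), with a Foxj1 UMI in 30. Endothelial-like cells, which lack motile cilia, had 230 CPM in KO and 260 CPM in control. The median depth of the barcodes left out was 955 UMIs in KO and 946 in control, and 112 and 173 of them were over the limit on mitochondrial UMIs. When cells were grouped without the filter, ependymal-like cells numbered 261 in KO and 249 in control, against 232 and 116 with it. The filter thus changed the ependymal-like share more in the control library, and the all-cell difference between the libraries depends on that share.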

How the results depend on the processing

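In the values below, the ratio to RG/NSC-like, astrocyte-like or neuron-like cells is that of the members' summed CPM in ependymal-like cells, with KO given before control. No setting turned any of these ratios below 1, and the cause of each move was not tested. Without a filter on barcodes the ratio to RG/NSC-like cells was 4.35 and 9.0, and that to neuron-like cells 15.8 in control. The KO to control ratio was then 0.885 for motile families and 1.85 for all members in RG/NSC-like cells, the members' median log2 ratio was -0.17, and 1 member was at least 1.5-fold higher. With a stricter filter the ratios to RG/NSC-like cells were 12.1 and 14.3 and to astrocyte-like cells 6.85 and 12.9, the KO to control ratio was 1.01 in RG/NSC-like and 1.61 in astrocyte-like cells, and 1 member was higher. Without doublet removal the ratios to RG/NSC-like cells were 5.68 and 10.7 and to neuron-like cells 15.8 in control, with KO to control ratios of 0.870 for motile families and 1.66 in RG/NSC-like cells, and 1 member higher. At resolution 2 the ratios were 12.3 and 14.0 to RG/NSC-like and 5.93 and 12.6 to astrocyte-like cells, and with more variable genes 12.2 and 14.1, and 5.84 and 12.6. Both settings turned the KO to control direction in RG/NSC-like cells, to 0.975 and 0.986, and gave 1.82 and 1.85 in astrocyte-like cells. With ependymal cells taken by a marker gate the ratios were 8.17 and 12.1 to RG/NSC-like cells, 13.6 to astrocyte-like cells in control, and 12.6 and 14.8 to neuron-like cells, with 1 member higher in KO and 1.28 in RG/NSC-like cells. Means of per-cell fractions gave 6.98 and 11.2 to RG/NSC-like cells, 13.8 to astrocyte-like cells in control, 12.8 and 14.3 to neuron-like cells, 1 member higher in KO, and a KO to control ratio of 0.972 in neuron-like cells. In cells counted as female the KO to control ratio was 0.821 for motile families, 0.823 for Ift and 1.35 for members in RG/NSC-like cells, with 14 of 70 members lower (9.26% of all measured genes).

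The remaining alternatives were chosen after seeing the data. Cluster 8 alone gave 8.29 and 13.8 to RG/NSC-like cells, 16.1 to astrocyte-like cells in control, 15.1 and 17.6 to neuron-like cells, 0.871 for motile families between KO and control, 1 member higher, and a motile-family UMI in 100% of cells of both. Cluster 16 alone gave 3.78 and 4.55, 5.79 and 5.33, and 6.90 and 5.80 to the same 3 classes. Members at least 2-fold higher there were 42 of 49 and 22 of 31 measured against RG/NSC-like cells (16.1% and 19.5% of all measured genes), 33 of 37 and 19 of 22 against astrocyte-like cells (21.3% and 17.8%), and 41 of 44 in control against neuron-like cells (30.9%). These members too could pass the UMI limit through the higher side alone. Cluster 16 alone turned the KO to control direction, to 1.27 for motile families, 1.10 for Ift and a median log2 ratio of 0.30, with 9 members higher and 1 lower, and a motile-family UMI in 93.8% and 90.9% of cells. In cluster 16 the log2 ratio of KO to control was positive for Cfap126 (0.95), Cfap206 (0.70), Cfap65 (0.11), Dnaaf1 (1.38), Dnah10 (0.76), Dnah5 (0.40), Dnah6 (0.54), Dnah9 (1.04), Ift43 (0.11), Rsph1 (0.57) and Rsph10b (0.59), and -0.087 for Dnaaf3, each opposite to the whole class. These single values have no interval here, and some rest on very few UMIs. Before drawing, Dnah10 was found in 2.82% of KO and 0% of control cluster 16 cells, so its value depends on the 0.5 UMI added. Dnaaf1 was found in 12.7% and 4%. The small values of Cfap65, Ift43 and Dnaaf3 are not read as differences. RG/NSC-like cells as cluster 5 alone gave ratios of 5.39 and 8.93, and without cells with a Foxj1 UMI 9.80 and 13.5, with a KO to control ratio of 1.18. The looser letters, a different pattern tried after the strict count was seen, matched 18.5% of member promoters and 2.63% of all promoters. The strict X-box matched 0% and 0.298%.

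Resolution 0.5, members among the variable genes, KO UMIs drawn to the control depth, minimums of 10 or 50 UMIs, 1 UMI added, TMM, median-of-ratios scaling and leaving out near-identical copies moved none of these results past the spread allowed for counting. Counted as pairs of a single-gene KO to control ratio and a setting, 517 kept the value, 22 moved it and 12 turned it. Counted as pairs of a main result and a setting, 294 kept the value, 78 moved it and 5 turned it. No paired analysis was possible because each genotype has 1 library, so no replicate could be left out either. Depth limits members with few UMIs, such as Tekt3, and the 25 control cells of cluster 16.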
